A study of Mus musculus with 10 samples.

Results

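Lbx1, Lmx1b, Tlx3, Lhx1, Lhx5, En1, Gata3 and Pax2 are transcription factors that give spinal interneurons their identity. They were taken from the count table by matching its Entrez Gene identifiers to these symbols, which found 8 of 8 genes among 26301 identifiers. Their RNA was measured by RNA sequencing in 10 libraries of whole spinal cord from C57BL/6 mice, an inbred laboratory strain. The libraries came from 3 male samples at 8 weeks, 2 male samples at 4 weeks, 3 female samples at 8 weeks and 2 female samples at 4 weeks, and no treatment or mutation is named for any of them. The labels do not say whether replicates came from separate animals or whether animals were pooled, so p-values measure the spread between these samples only, which may be technical. The comparisons that the design allows are 8 against 4 weeks, male against female, and whether the age difference depends on sex.

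In the embryonic cord, dividing progenitors at different dorsoventral positions leave the cell cycle as distinct neuron classes, and each class is recognised by a combination of homeobox, paired box and zinc finger factors. Many of these factors stay on at a low level after birth, and they are used as markers of interneuron types in the adult dorsal horn, where touch, itch and pain are processed, and in the ventral circuits for movement. Lbx1 marks the late-born dorsal horn neurons as a group. Tlx3 and Lmx1b mark the excitatory, glutamate-releasing dorsal horn neurons, while Pax2, Lhx1 and Lhx5 mark inhibitory neurons that release GABA or glycine. En1 marks the ventral V1 inhibitory class, which includes Renshaw cells, and Gata3 the V2b inhibitory class. In RNA of a whole cord, fewer cells of a type and less RNA per cell cannot be told apart.

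Promoter sequence from RefSeq, assembly GRCm38.p6, is shown because homeobox and paired box genes of this kind often start in CpG-rich DNA, where each CG is a possible methylation site; the expression data do not test these sequences. Entries were matched by gene identifier for 6 of the 8 genes, namely En1, Gata3, Lhx1, Lmx1b, Pax2 and Tlx3. Each window holds the 250 bases before the annotated start, read 5′ to 3′ on the strand of the gene, with every CG in capitals. The window of Lhx1 lies at chr11:84525535-84525784 on the minus strand and holds 26 CG, more than 90.4% of the windows in the RefSeq table. The window of Tlx3 lies at chr11:33203589-33203838 on the minus strand and holds 13. Pax2 has 3 annotated starts, and the window of the first lies at chr19:44746351-44746600 on the plus strand and holds 5.
Lhx1: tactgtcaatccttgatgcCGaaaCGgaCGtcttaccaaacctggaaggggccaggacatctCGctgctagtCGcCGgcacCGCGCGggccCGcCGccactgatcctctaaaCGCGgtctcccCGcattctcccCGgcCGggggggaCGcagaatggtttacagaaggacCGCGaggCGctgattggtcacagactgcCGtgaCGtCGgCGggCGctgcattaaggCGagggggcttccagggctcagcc
Tlx3: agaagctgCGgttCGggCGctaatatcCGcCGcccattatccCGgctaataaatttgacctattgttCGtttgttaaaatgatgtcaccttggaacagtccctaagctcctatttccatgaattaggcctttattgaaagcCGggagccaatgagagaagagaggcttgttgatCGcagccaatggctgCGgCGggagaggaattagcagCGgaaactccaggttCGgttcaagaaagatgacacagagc
Pax2: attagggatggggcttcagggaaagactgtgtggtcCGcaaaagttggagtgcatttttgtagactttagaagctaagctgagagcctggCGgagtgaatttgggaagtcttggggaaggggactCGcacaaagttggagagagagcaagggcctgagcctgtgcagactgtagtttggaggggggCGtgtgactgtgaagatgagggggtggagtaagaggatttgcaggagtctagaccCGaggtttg
The 2 other windows of Pax2 held 20 and 25 CG, and those of En1, Gata3 and Lmx1b held 19 each. Over all 32851 windows of the table the median was 6 CG, with quartiles of 2 and 16. The letters TATAAA, searched on both strands, were in 0 of the windows of these 6 genes and in 12.4% of all windows, which is a description of the letters only.

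Library totals were between 8453559 and 11594610 counts, so that 1 CPM, the count scaled to library size, corresponds to about 10 counts. Markers of tissues that lie next to the cord varied between libraries. Summed over a list of 10 skeletal muscle genes, the level was 35.1 to 131 CPM in the 8-week libraries and 435 to 1716 CPM in the 4-week libraries, highest in male 4-week library 1, and 10 of 10 were called lower at 8 weeks. A list of 6 adrenal cortex genes summed to 8.99 to 11.0 CPM at 8 weeks and 9.49 to 123 CPM at 4 weeks, highest in male 4-week library 1. A list of 4 lung genes reached 776 CPM in male 8-week library 2, and a list of 6 dorsal root ganglion genes was highest in male 8-week library 3. Genes of the brain in front of the cord gave 4.78 to 7.11 CPM at 8 weeks and 5.14 to 6.22 CPM at 4 weeks. Most of that sum was En2, with 37 to 51 counts per library. Cbln3 had 5 to 19 counts, and Otx2 and Gabra6 had 0 in all libraries. The 6 Hox genes of the cord summed to 203 to 234 CPM at 8 weeks and 170 to 189 CPM at 4 weeks.

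All 8 factors were detected in every library at low level, and none passed the test for a difference between 8 and 4 weeks. Levels are CPM scaled by the trimmed mean of M values (TMM), and differences were tested with edgeR's quasi-likelihood test over 15540 genes with Benjamini-Hochberg adjustment at 0.05. Over both sexes 0 of the 8 genes were called, against 6.62% of all genes tested, and 0 were called by DESeq2 or by limma-voom. At an unadjusted p under 0.05 the count was 2 by edgeR (Lbx1 and Lmx1b), 0 by DESeq2 and 2 by limma-voom, and 21% of all genes were under it by edgeR. Their log2 fold changes, 8 over 4 weeks, ran from 0.01 for Tlx3 to 0.43 for Lmx1b with a median of 0.28, against a median of 0.01 for all genes. All 8 were above 0, as were 51.6% of all genes, but 5 of 8 were above 0 when libraries were scaled on the counts of pan-neuronal genes, which shifted the median of all genes by -0.13. Other cord and neuron genes also lay mostly above 0. The Hox genes of the cord had 6 of 6 above 0, a median of 0.28 and 2 called higher. Pan-neuronal genes had 10 of 10 above 0 with a median of 0.13, and motor neuron genes 5 of 6 with 0.14. For every one of the 8 factors the libraries of the 2 ages overlapped, whereas they did not for 7.73% of all genes. The median SE was 0.17 for these 8 genes and 0.10 for all genes.

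**Figure D1:**
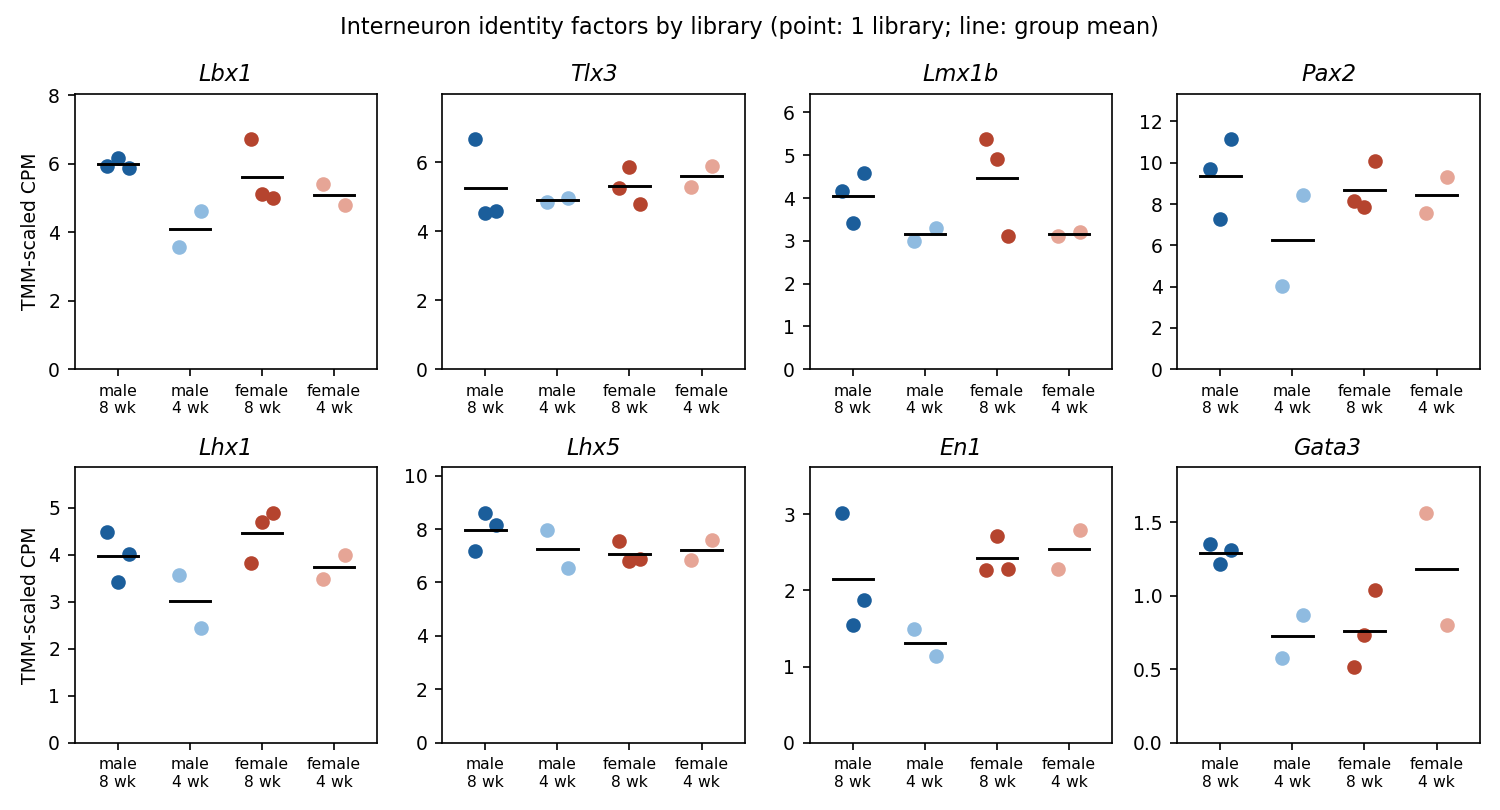
TMM-scaled CPM of the 8 identity factors (vertical axis) in male and female libraries at 8 and 4 weeks; each point is 1 library and each line a group mean. The ages overlap for every factor, and Pax2 in male 4-week library 1, at 4.04 CPM, is the lowest of its panel.

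Lbx1, a homeobox factor needed in mouse embryos for the dorsal horn classes that arise latest, was counted 57, 56 and 63 times in male 8-week libraries, against 31 and 53 times in male 4-week libraries, and 65, 49 and 48 times in female 8-week libraries, against 45 and 48 times in female 4-week libraries. On the CPM scale that is 5.93, 6.18 and 5.89 in 8-week males, against 3.57 and 4.62 in 4-week males, and 6.71, 5.12 and 4.99 in 8-week females, against 5.41 and 4.80 in 4-week females. In males every 8-week library lay above both 4-week libraries, while in females the ages overlapped. The share of all genes that separate in this way within males was not counted, here or for the factors below. Over both sexes Lbx1 averaged 5.80 ± 0.649 CPM at 8 weeks (SD, n = 6) and 4.60 ± 0.762 CPM at 4 weeks (SD, n = 4). Its log2 fold change was 0.34 (SE 0.15, 95% interval 0.02 to 0.66, edgeR adjusted p = 0.215), with 4 of 6 libraries at 8 weeks above every library at 4 weeks. The unadjusted interval excluded 0 and the call over all genes was not made.

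For age over both sexes, the excitatory marker Lmx1b had the largest log2 fold change of the 8 genes and the excitatory marker Tlx3 the smallest. Lmx1b, a LIM homeobox factor that in mice is also needed for serotonin neurons of the hindbrain, had 40, 31 and 49 counts in 8-week males, against 26 and 38 in 4-week males, and 52, 47 and 30 counts in 8-week females, against 26 and 32 in 4-week females. Its levels were 4.16, 3.42 and 4.58 CPM in 8-week males, against 3.0 and 3.31 CPM in 4-week males, and 5.37, 4.92 and 3.12 CPM in 8-week females, against 3.12 and 3.20 CPM in 4-week females. At 8 weeks 5 of 6 libraries were above every 4-week library, and female 8-week library 3 was the exception. The mean was 4.26 ± 0.870 CPM at 8 weeks (SD, n = 6) and 3.16 ± 0.132 CPM at 4 weeks (SD, n = 4), and the log2 fold change 0.43 (SE 0.18, 95% interval 0.04 to 0.82, edgeR adjusted p = 0.191).

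Tlx3, a homeobox factor that in mouse dorsal horn selects the glutamatergic over the GABAergic fate, had 64, 41 and 49 counts in 8-week males, against 42 and 57 in 4-week males, and 51, 56 and 46 counts in 8-week females, against 44 and 59 in 4-week females. The levels were 6.66, 4.52 and 4.58 CPM in 8-week males, against 4.84 and 4.97 CPM in 4-week males, and 5.27, 5.86 and 4.78 CPM in 8-week females, against 5.29 and 5.90 CPM in 4-week females. The 8-week libraries lay on both sides of the 4-week ones, with 1 above all of them and 3 below. Its means were 5.28 ± 0.842 CPM at 8 weeks (SD, n = 6) and 5.25 ± 0.472 CPM at 4 weeks (SD, n = 4), and its log2 fold change was 0.01 with a 95% interval from -0.31 to 0.32.

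Both markers of excitatory neurons are also found outside the cord, Tlx3 in sensory ganglia and Lmx1b in the hindbrain raphe. The 6 dorsal root ganglion genes summed to 3.82 to 24.0 CPM at 8 weeks and 4.08 to 8.76 CPM at 4 weeks, and 0 of the 3 that could be tested differed by age. In male 8-week library 3, where that sum was highest, Tlx3 was at 4.58 CPM. In male 8-week library 1, where the sum was 10.2 CPM, Tlx3 was at 6.66 CPM. The 4 raphe serotonin genes summed to 6.50 to 8.21 CPM at 8 weeks and 8.52 to 9.75 CPM at 4 weeks, with 1 of 2 tested genes called lower. The part of these tissues in the Tlx3 and Lmx1b values was not tested.

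Among the inhibitory markers, Pax2 varied most over the 10 libraries relative to counting error, and Lhx5 least. Pax2, a paired box factor required in mice for the GABAergic phenotype of dorsal horn neurons, had 93, 66 and 119 counts in 8-week males, against 35 and 97 in 4-week males, and 79, 75 and 97 counts in 8-week females, against 63 and 93 in 4-week females. Its levels were 9.68, 7.28 and 11.1 CPM in 8-week males, against 4.04 and 8.45 CPM in 4-week males, and 8.16, 7.84 and 10.1 CPM in 8-week females, against 7.57 and 9.30 CPM in 4-week females. Male 4-week library 1 was the lowest, and the other 9 libraries lay between 7.28 and 11.1 CPM. The mean was 9.03 ± 1.49 CPM at 8 weeks (SD, n = 6) and 7.34 ± 2.31 CPM at 4 weeks (SD, n = 4), and the log2 fold change was 0.29 (SE 0.19, 95% interval -0.12 to 0.71, edgeR adjusted p = 0.427). Without male 4-week library 1 it was 0.09 with an edgeR adjusted p of 0.834. That library also had the highest muscle, fibroblast and adrenal cortex sums. Genes with at least 6801 exon bases had there a median log2 CPM, centred on each gene's own mean, of -0.15. In the other libraries that median was between -0.08 and 0.09. Pax2, with 5409 exon bases, is shorter than these genes. The part of these features in the Pax2 value was not tested.

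Lhx1 and Lhx5 are paired LIM homeobox factors that in mouse dorsal horn act together to keep Pax2 on. Lhx1 had 43, 31 and 43 counts in 8-week males, against 31 and 28 in 4-week males, and 37, 45 and 47 counts in 8-week females, against 29 and 40 in 4-week females. These are 4.47, 3.42 and 4.02 CPM in 8-week males, against 3.57 and 2.44 CPM in 4-week males, and 3.82, 4.71 and 4.89 CPM in 8-week females, against 3.48 and 4.00 CPM in 4-week females. At 8 weeks 4 of 6 libraries were above every 4-week library. The log2 fold change of Lhx1 was 0.33 (SE 0.17, 95% interval -0.03 to 0.69, edgeR adjusted p = 0.277).

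Lhx5 had 69, 78 and 87 counts in 8-week males, against 69 and 75 in 4-week males, and 73, 65 and 66 counts in 8-week females, against 57 and 76 in 4-week females. The levels were 7.18, 8.60 and 8.14 CPM in 8-week males, against 7.96 and 6.54 CPM in 4-week males, and 7.54, 6.80 and 6.86 CPM in 8-week females, against 6.85 and 7.60 CPM in 4-week females. The groups overlapped throughout. The log2 fold change of Lhx5 was 0.06 with a 95% interval from -0.19 to 0.31, the narrowest of the 8 genes.

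En1 and Gata3 mark ventral inhibitory classes and were counted least often. En1, a homeobox factor, had 29, 14 and 20 counts in 8-week males, against 13 and 13 in 4-week males, and 22, 26 and 22 counts in 8-week females, against 19 and 28 in 4-week females. In CPM these were 3.02, 1.54 and 1.87 in 8-week males, against 1.5 and 1.13 in 4-week males, and 2.27, 2.72 and 2.29 in 8-week females, against 2.28 and 2.80 in 4-week females. In males each 8-week library was above both 4-week libraries, with male 8-week library 1 the highest of all 10, and in females the ages overlapped. The log2 fold change over both sexes was 0.28 (SE 0.25, 95% interval -0.25 to 0.81, edgeR adjusted p = 0.569).

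Gata3, a zinc finger factor, had 13, 11 and 14 counts in 8-week males, against 5 and 10 in 4-week males, and 5, 7 and 10 counts in 8-week females, against 13 and 8 in 4-week females. The levels were 1.35, 1.21 and 1.31 CPM in 8-week males, against 0.577 and 0.871 CPM in 4-week males, and 0.516, 0.732 and 1.04 CPM in 8-week females, against 1.56 and 0.800 CPM in 4-week females. In males the 8-week libraries were above both 4-week libraries, and in females 2 of 3 libraries at 8 weeks were below both 4-week libraries. Over both sexes the log2 fold change was 0.12 with a 95% interval from -0.63 to 0.86, the widest of the 8 genes. Gata3 is also expressed by T cells and by cells of the adrenal medulla. The T cell list summed to 1.78 to 2.86 CPM at 8 weeks and 2.52 to 5.53 CPM at 4 weeks, with 1 of 2 tested genes called lower and Cd3d, Cd3e, Cd3g and Cd2 below the filter. The adrenal medulla and sympathetic list summed to 313 to 357 CPM at 8 weeks and 291 to 336 CPM at 4 weeks, with 2 of 5 tested genes called lower, but most of that sum is Chga, which neurons also express. Pnmt, the enzyme that makes adrenaline, had 0 counts in the 8-week libraries, 32 and 24 counts in male 4-week libraries and 0 in female 4-week libraries. Dbh, which makes noradrenaline, had 0 to 2 counts in the 8-week libraries, 11 and 21 in male 4-week libraries and 2 and 0 in female 4-week libraries. The adrenal cortex genes were also high in both male 4-week libraries, where Gata3 had 5 and 10 counts. The part of these tissues in the Gata3 counts was not tested.

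**Figure D2:**
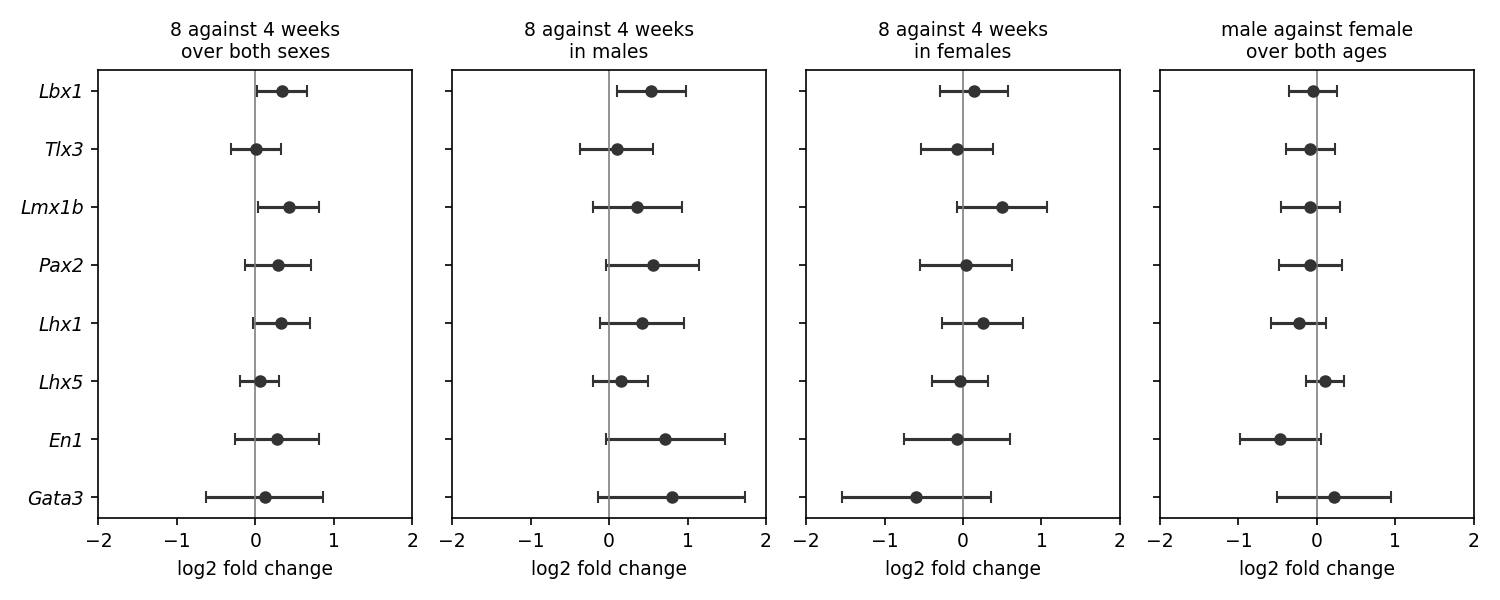
Log2 fold changes of the 8 factors (horizontal axis; points) with 95% intervals (bars) for 8 over 4 weeks over both sexes, in males and in females, and for male over female. Intervals over both sexes exclude 0 for Lbx1 and Lmx1b before adjustment, and no factor passed the adjusted threshold; scaling on pan-neuronal counts places Tlx3, Lhx5 and Gata3 below 0 in the first panel.

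The share of the spread that counting alone would give was large for most of the 8 genes. Over 10 libraries the coefficient of variation of Lhx5 was 9.12%, against 11.8% from counting error, and that of Tlx3 was 13.0%, against 14.0%. For Gata3 it was 35.4%, against 32.3%, and for En1 28.9%, against 22.0%. For Lmx1b it was 22.7%, against 16.4%, and for Pax2 23.3%, against 11.1%. Without male 4-week library 1, a choice made after seeing the data, that of Pax2 was 14.6%, against 10.7%, so its larger excess over counting rests on this library. The summed counts of each age bound the ratio of 8 over 4 weeks through counting error only: the exact 95% interval was 1.06 to 1.54 for Lbx1, 1.09 to 1.70 for Lmx1b, 1.03 to 1.60 for Lhx1 and 1.06 to 1.42 for Pax2. For Tlx3 it was 0.845 to 1.22, for Lhx5 0.905 to 1.23, for En1 0.906 to 1.64 and for Gata3 0.723 to 1.73. These intervals leave out the differences between samples and are no test of age.

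Within males all 8 log2 fold changes were above 0, as were 50.9% of all genes, and 6 of 8 were above 0 when libraries were scaled on pan-neuronal counts, which shifted the median of all genes by -0.18. In males 0 of 8 genes were called, against 3.22% of all genes, and 0 by DESeq2 or limma-voom; at an unadjusted p under 0.05 edgeR gave 1, Lbx1, against 16.6% of all genes. The values were 0.54 for Lbx1 (SE 0.20, edgeR adjusted p = 0.196), 0.72 for En1 (SE 0.35, edgeR adjusted p = 0.330), 0.80 for Gata3 (SE 0.43, edgeR adjusted p = 0.389) and 0.56 for Pax2 (SE 0.27, edgeR adjusted p = 0.339). Lmx1b, Lhx1, Lhx5 and Tlx3 were at 0.36, 0.42, 0.15 and 0.10. When male 4-week library 2 was left out, Pax2 was called at 1.22 (SE 0.30, edgeR adjusted p = 0.0312), with male 4-week library 1 as the lone male sample at 4 weeks, assumed to vary like the other groups; without library 1 instead, Pax2 was at 0.16 with an edgeR adjusted p of 0.835. When libraries were scaled on pan-neuronal counts, Tlx3 was at -0.09 and Lhx5 at -0.04 in males.

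In females 0 of 8 genes were called, against 1.45% of all genes, with 0 at an unadjusted p under 0.05 by edgeR, where 12.1% of all genes were, and 0 by DESeq2 or limma-voom. The log2 fold changes had a median of 0.00, with 4 of 8 above 0, as were 50.3% of all genes. Lmx1b had the largest positive value, 0.50 (SE 0.26, edgeR adjusted p = 0.50), and Gata3 the most negative, -0.59 (SE 0.43, edgeR adjusted p = 0.635). Lbx1 and Lhx1 were at 0.14 and 0.25, and Pax2, Lhx5, En1 and Tlx3 were between -0.08 and 0.04.

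The interaction of age and sex, which tests whether the 2 age differences themselves differ, called 0 of the 8 genes by edgeR, against 0.0129% of all genes, and 0 by DESeq2 or limma-voom. Gata3 was the 1 gene with an unadjusted p under 0.05, as 4.82% of all genes had: its log2 age difference was 1.39 larger in males than in females (SE 0.61, 95% interval 0.06 to 2.72, edgeR adjusted p = 0.970). That value rests on 5 to 14 counts per library. En1 followed at 0.79 (SE 0.47), and the remaining 6 were between -0.14 and 0.52. The median over the 8 genes was 0.48 in males and 0.00 in females, and the difference between these medians was not tested.

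Between the sexes 0 of 8 genes were called over both ages, against 0.0901% of all genes, with 0 at an unadjusted p under 0.05 by edgeR, against 7.36% of all genes, and 0 called by DESeq2 or limma-voom. En1 had the most negative log2 fold change, male over female, of -0.47 (SE 0.24, 95% interval -0.98 to 0.05, edgeR adjusted p = 0.670). Of the male libraries, 4 of 5 lay below every female library, although male 8-week library 1 was the highest of all. The other 7 factors were between -0.23 for Lhx1 and 0.21 for Gata3.

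When levels were divided by exon length, which permits comparison between genes, Tlx3 was the most abundant of the 8 and Gata3 the least. Mean CPM per kilobase of exon over 10 libraries was 3.44 ± 0.446 for Tlx3, 2.75 ± 0.251 for Lhx5 and 2.14 ± 0.363 for Lbx1 (SD, n = 10). Pax2 followed at 1.54 ± 0.360, although its CPM without length was the highest, since its exons span 5409 bases against 1533 for Tlx3. Lhx1 was at 0.954 ± 0.176, En1 at 0.817 ± 0.236, Lmx1b at 0.783 ± 0.178 and Gata3 at 0.251 ± 0.0888. The mean of Gata3 lay at percentile 3.27 and that of Pax2 at percentile 29.7 of mean CPM among the genes tested.

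Neighbours in that order were compared within each library. Tlx3 exceeded Lhx5 in 8 of 10 libraries, Lhx5 exceeded Lbx1 in 10 of 10, Lbx1 exceeded Pax2 in 10 of 10 and Pax2 exceeded Lhx1 in 9 of 10, though the ranges over libraries overlapped for each of these pairs. Lhx1 exceeded En1 in 7 of 10 with a mean log2 ratio of 0.26 ± 0.28 (SD), and En1 exceeded Lmx1b in 5 of 10 with 0.03 ± 0.45, so neither pair differed by more than the spread between libraries. Lmx1b exceeded Gata3 in 10 of 10, and theirs was the 1 neighbouring pair whose ranges did not overlap. Exon lengths were the union of annotated exons on GRCm38, so the order also depends on which exons are used in cord.

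**Figure D3:**
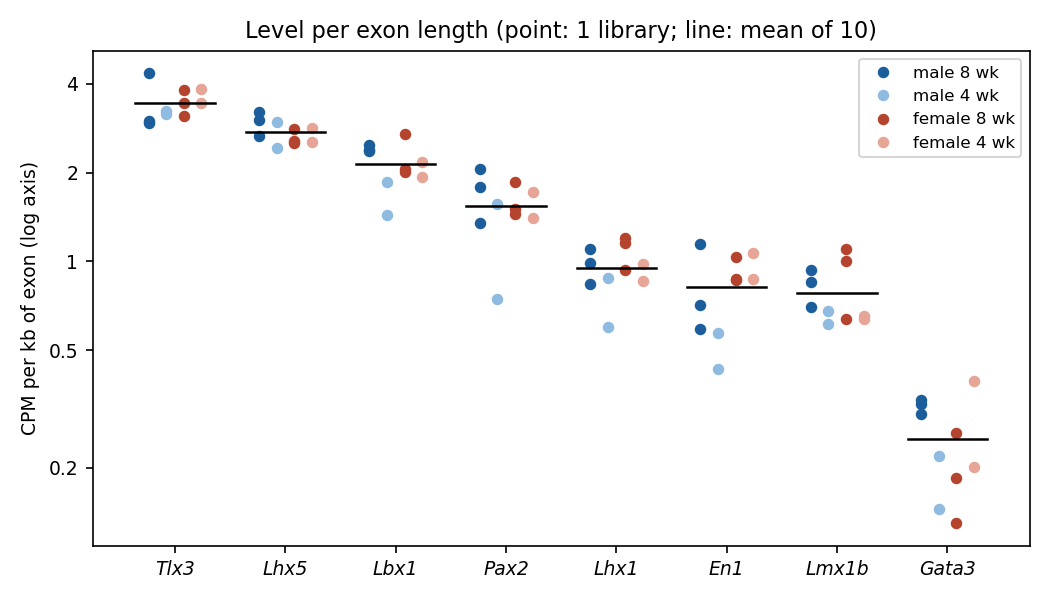
CPM per kilobase of exon (vertical log axis) of the 8 factors ordered by their mean over 10 libraries; each point is 1 library, coloured by group, and each line is the mean. Tlx3 has the highest mean, 3.44, and Gata3 the lowest, 0.251, with ranges of Gata3 and Lmx1b that do not overlap.

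Summed over all 8 genes, the level was 36.1 to 42.4 CPM in the 8-week libraries and 29.0 to 38.4 CPM in the 4-week libraries, lowest in male 4-week library 1. The excitatory pair Lmx1b and Tlx3 summed to 10.8, 7.94 and 9.16 CPM in 8-week males, against 7.84 and 8.28 CPM in 4-week males, and 10.6, 10.8 and 7.90 CPM in 8-week females, against 8.41 and 9.10 CPM in 4-week females. The inhibitory markers Pax2, Lhx1, Lhx5, En1 and Gata3 summed to 25.7, 22.1 and 26.5 CPM in 8-week males, against 17.6 and 19.4 CPM in 4-week males, and 22.3, 22.8 and 25.2 CPM in 8-week females, against 21.7 and 24.5 CPM in 4-week females. Both sums overlapped between ages in females, and in males the inhibitory sums did not. That sets 3 libraries against 2, and how often other sums or genes separate in males was not counted. Pan-neuronal genes summed to 6519 to 6795 CPM at 8 weeks and 5713 to 6376 CPM at 4 weeks without overlap, with 1 of 10 called higher, and oligodendrocyte genes to 33139 to 39391 CPM at 8 weeks and 51354 to 55878 CPM at 4 weeks, with 4 of 4 called lower. The part of these cell types in the values of the identity factors was not tested.

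The other genes of the same programmes were examined as 6 lists holding 77 genes, of which 62 passed the filter on low counts. For age over both sexes edgeR called 0 of the 62, DESeq2 and limma-voom called 0, and 10 had an unadjusted p under 0.05 by edgeR, where 6.62% of all genes were called and 21% were under that p. Of 9 tested factors of dorsal excitatory neurons, 8 were above 0 with a median of 0.34. Pou4f1, a POU homeobox factor of early-born dorsal neurons, averaged 8.24 ± 1.15 CPM at 8 weeks and 6.50 ± 0.904 CPM at 4 weeks (log2 fold change 0.35, SE 0.14, edgeR adjusted p = 0.169). Barhl2, a homeobox factor of commissural dorsal neurons, was at 0.91 (SE 0.43, edgeR adjusted p = 0.239). That value rests on 4 to 13 counts per library at 8 weeks and 4 to 6 at 4 weeks. Pou4f1 had its highest count, 106, in male 8-week library 3, where the dorsal root ganglion sum was highest. The total of that library was also the highest at 8 weeks. Scaled to library size, the sum of the 13 listed genes was highest there too, at 82.5 CPM. That sum was 61.6 to 82.5 CPM at 8 weeks and 57.0 to 68.2 CPM at 4 weeks. The part of ganglia in the values of this list was not tested.

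Factors of dorsal inhibitory neurons had a median of 0.01, with 5 of 9 tested above 0. Pax5, a paired box relative of Pax2, averaged 0.340 ± 0.183 CPM at 8 weeks and 1.16 ± 0.756 CPM at 4 weeks, with a log2 fold change of -1.74 (SE 0.49, edgeR adjusted p = 0.0504). Its counts were 1, 2 and 5 in 8-week males, against 12 and 9 in 4-week males, and 5, 5 and 2 in 8-week females, against 3 and 21 in 4-week females, so the ages overlapped. Pax8, the third gene of that paired box subfamily, was at 0.15 (SE 0.10, edgeR adjusted p = 0.418). Il7r of the T cell list was also lower at 8 weeks, at -1.66 (edgeR adjusted p = 0.00636). It had 3 to 9 counts in the 8-week libraries and 10 to 30 in the 4-week libraries. Lck, the other tested gene of that list, was at -0.17 (edgeR adjusted p = 0.812). The part of blood cells in the Pax5 counts was not tested.

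Ventral interneuron factors had a median of 0.04, with 9 of 14 tested above 0. Tal1, a partner of Gata2 and Gata3 in the V2b class that is also a blood and vessel factor, averaged 4.93 ± 0.518 CPM at 8 weeks and 6.47 ± 1.27 CPM at 4 weeks, with a log2 fold change of -0.40 (SE 0.15, edgeR adjusted p = 0.135). Late neuron class factors, which group interneurons by birth time and reach rather than by position, had a median of 0.05 with 5 of 7 above 0. Neurod2 was at 0.23 (SE 0.13, edgeR adjusted p = 0.329) and Nfia at 0.08 (SE 0.06, edgeR adjusted p = 0.456).

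Cofactors that bind LIM homeobox, GATA or repressor domains had a median of 0.06, with 11 of 17 above 0. Lmo3, a LIM-only protein, averaged 25.2 ± 1.14 CPM at 8 weeks and 20.6 ± 2.72 CPM at 4 weeks, with a log2 fold change of 0.29 (SE 0.09, edgeR adjusted p = 0.0725). Ldb2, which bridges LIM homeobox factors, was at 0.27 (SE 0.08, edgeR adjusted p = 0.0759).

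The 6 transmitter genes of interneurons were all above 0, with a median of 0.17. Gad2, which makes GABA, was at 0.18 (SE 0.06, edgeR adjusted p = 0.106), and Slc32a1, the vesicular transporter for GABA and glycine, at 0.17 (SE 0.06, edgeR adjusted p = 0.125). In males 1 of the 62 list genes was called by edgeR, DESeq2 and limma-voom, against 3.22% of all genes by edgeR, and it was Slc32a1, at 0.30 (SE 0.07, edgeR adjusted p = 0.0299). It had 2073, 2096 and 2348 counts in 8-week males, against 1513 and 2128 in 4-week males. The call was lost when libraries were scaled on pan-neuronal counts (0.11, edgeR adjusted p = 0.336), without male 4-week library 1 (0.27, edgeR adjusted p = 0.148), and without male 8-week library 1, 2 or 3 or female 8-week library 1, where the log2 fold change was 0.33, 0.28, 0.31 and 0.30 with edgeR adjusted p of 0.0568, 0.123, 0.0722 and 0.0618. With male 8-week libraries 2 and 3 both left out it was 0.26 with an edgeR adjusted p of 0.416. In females 0 of 62 list genes were called by any of the 3 tools, against 1.45% of all genes by edgeR, and 5 had an unadjusted p under 0.05, against 12.1%. Between the sexes 0 were called by any tool, against 0.0901% of all genes by edgeR, and 3 had an unadjusted p under 0.05, against 7.36%.

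**Figure D4:**
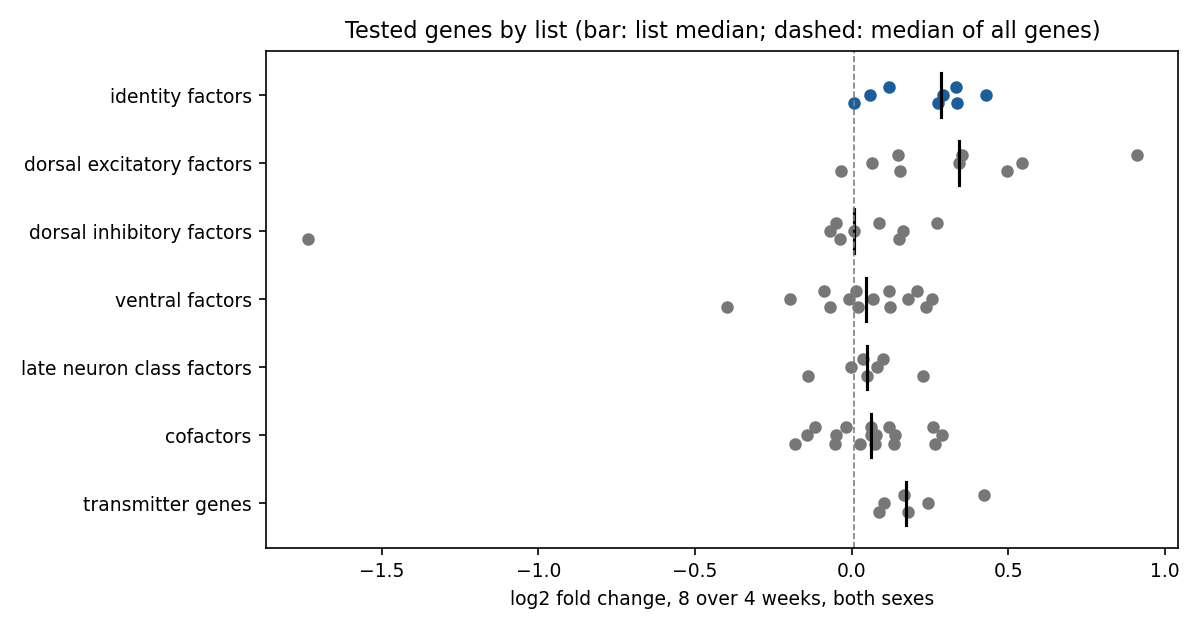
Log2 fold change, 8 over 4 weeks over both sexes (horizontal axis), of the 8 identity factors and of the tested genes of 6 related lists; each point is 1 gene, bars are list medians and the dashed line is the median of all genes tested, 0.01. The 8 factors have a median of 0.28 and the factors of dorsal excitatory neurons 0.34, and Pax5 is the point at -1.74; scaling on pan-neuronal counts shifts all genes down by a median of 0.13 and leaves 5 of the 8 factors above 0.

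Factors of the progenitor stage were at or near the detection limit. Ptf1a and Dbx1, which act in progenitors or newborn neurons, and Tlx1, a relative of Tlx3, had 0 counts in all 10 libraries, which allows up to 3 counts in 96808089, or 0.031 CPM. Foxn4 had 2 counts over the 8-week libraries and 0 over the 4-week libraries, and Gsx2 had 1 and 1. Prdm13, a factor of dorsal inhibitory progenitors, had 12 counts over 6 libraries at 8 weeks and 10 over 4 libraries at 4 weeks. All 8 identity factors were above these levels, with a lowest count of 5, for Gata3.

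Genes that overlap or neighbour the 8 factors were examined because neither the strand setting nor the annotation used for the counting is given, so reads from bases that 2 genes share cannot be assigned to 1 of them. C130021I20Rik, on the strand opposite Lmx1b and overlapping that gene without shared exon bases in the annotation, averaged 13.3 ± 1.45 CPM at 8 weeks and 10.6 ± 1.38 CPM at 4 weeks, with a log2 fold change of 0.32 (SE 0.10, edgeR adjusted p = 0.0860). Lmx1b and this transcript were thus both above 0 and both short of the threshold. Lhx1os, opposite Lhx1, was at -0.05 (edgeR adjusted p = 0.902), and Aatf, on the same strand as Lhx1, at -0.10 (edgeR adjusted p = 0.663). Lhx5 shares 69 exon bases with Gm27199, and Gata3 shares 77 with 9230102O04Rik. Neither of these transcripts is among the counted identifiers, so neither has a count of its own. The source of reads from the shared bases cannot be told, and the counts of Lhx5 and Gata3 are uncertain to that extent. En2, the close relative of En1 and the main gene of the brain list, had 37 to 51 counts in every library.

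The genes whose profile over 10 libraries lay closest to the mean profile of the 8 factors were Cpne5, Mpped2, Fto, Timp2 and the identifier 52318, which has no symbol here. Likeness was the root mean square difference of log2 CPM centred on each gene's own mean, and it was 0.0491 for Cpne5, 0.0676 for Mpped2, 0.0677 for Fto, 0.0720 for Timp2 and 0.0726 for the last, against a median of 0.236 over all genes tested. All 5 are counted more deeply than each of the 8 factors, at mean levels of 15.3 to 506 CPM.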

How the data were processed

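Per the labels' protocols, cords were removed, total RNA was extracted with Trizol and Illumina libraries were made. The authors deposited read counts per gene for each library, as whole numbers that are not normalized. Per the submitters' processing notes, TopHat2 2.1.0, featureCounts and the build mm9 were used; the sources used here do not give counting options or strand. Symbols came from a RefSeq table (24191 of 26301 identifiers matched). Neighbours were found by their positions in that RefSeq table. Exon lengths, and the strands and shared exon bases of neighbours, came from GENCODE M21 on GRCm38, which was used for these only.

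From the counts, edgeR 4.0.16 in R 4.3.3 (TMM, filterByExpr with minimum count 10 and minimum total 15) tested 15540 genes with a two-sided quasi-likelihood F test, which was tested on simulated data. Sex and age without regard to the other were fitted as additive terms (7 residual degrees of freedom), and the remaining comparisons as contrasts of the 4 groups (6 residual degrees of freedom). An SE is the size of the log2 difference over the root of its F value. DESeq2 1.42.0, limma 3.58.1 (voom), other scalings and filters, a replicate block and left-out libraries were the alternatives. Interval and limit values for counts cover counting error only. Replicates of a group were further apart than sampling noise (chi-square over degrees of freedom 1.92 to 11.2) and no library was a repeat of another by this check, so each was counted once; this does not show whether they are separate animals. The genes, gene lists and rules were chosen with earlier results of these data known. The text names all 8 factors, the 2 genes of lowest age p in each related list where none was called (1 of these is not reported here), the 5 genes of most alike profile and the annotated neighbours; En2, Slc32a1 in males, genes below the filter and genes of other tissues were named after their values were seen.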

Additional observations from a re-analysis of the deposited data

How the results depend on the processing

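Over 20 alternatives the 8 factors had 752 values, of which 711 kept their direction and side of the threshold, 1 passed it (Pax2 in males without male 4-week library 2) and 40, none of them called, changed sign. The number of factors called stayed 0 in every comparison but that one, where leaving out single libraries gave 0 to 1. Scaling on pan-neuronal counts placed Tlx3, Lhx5 and Gata3 at -0.13, -0.077 and -0.017 for age over both sexes, Tlx3 and Lhx5 at -0.093 and -0.042 in males, and Pax2 at -0.042 in females. With limma-voom Tlx3 was at -0.0081 for age over both sexes. Without both male 4-week libraries the age term rests on females alone and the sex term on 8 weeks alone, so it is no separate check: Tlx3, Lhx5, En1 and Gata3 were then at -0.082, -0.036, -0.076 and -0.59 for age, close to their values in females, and Lbx1 and Pax2 at 0.10 and 0.11 for sex. Without male 8-week libraries 2 and 3 Lhx5 and Gata3 were at -0.023 and -0.039 over both sexes, Lhx5 at -0.0026 in males and Tlx3 at 0.042 for sex. The cause of the other changes was not tested.

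With single libraries left out, age over both sexes ran from -0.089 to 0.067 for Tlx3, -0.097 to 0.50 for Gata3 and -0.018 to 0.11 for Lhx5. In males Tlx3 ran from -0.10 to 0.19 and Pax2 from 0.16 to 1.22. In females the ranges were -0.0094 to 0.23 for Lbx1, -0.16 to 0.0098 for Tlx3, -0.099 to 0.051 for Lhx5, -0.20 to 0.093 for En1 and -0.091 to 0.21 for Pax2. For sex they were -0.12 to 0.027 for Lbx1, -0.20 to 0.011 for Lmx1b and -0.20 to 0.078 for Pax2, and for the interaction -0.34 to 0.017 for Lmx1b, -0.024 to 0.27 for Tlx3 and -0.094 to 0.46 for Lhx1.

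Replicate numbers are shared between groups, but the labels do not say that they pair samples, so they were not taken to. The deviations of same-numbered libraries had correlations of -0.21 to 0.24. No values for differently numbered libraries were set beside them, so these correlations cannot decide whether samples are paired. With the replicate number as a block 0 factors were called in any comparison, Pax2 in females was at -0.081, and 808 genes were called for age over both sexes, against 1028 without it. Over all alternatives the genes called were 393 to 2723 for age over both sexes, 15 to 1991 in males against 501, 62 to 394 in females against 226, 9 to 60 for sex against 14 and 0 to 2 for the interaction against 2. Depth limits these values: the factors had 5 to 119 counts per library, and for Tlx3, Lhx5, En1 and Gata3 the counting interval of the age ratio includes 1.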
